A study of Mus musculus with 18 samples.

Results

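The Krüppel-like factors are DNA-binding proteins of the Klf gene family, and 10 of its genes, Klf2, Klf3, Klf4, Klf5, Klf6, Klf7, Klf9, Klf10, Klf13 and Klf16, were followed here among 43629 genes with counts. They were taken by symbol from a list of family members that was chosen with earlier results of these data known. Of them 10 of 10 were expressed highly enough to be tested among 11964 genes, and of 7 other Klf genes 1 was. RNA was measured by 3′ mRNA sequencing (QuantSeq), which reads a short stretch near the end of each transcript, in 18 libraries of AT3 cells, a mouse mammary carcinoma line, 3 for each of 6 conditions. The catalytic P300/CBP inhibitors A-241, at 250 nM, and A-485, at 1000 nM, or DMSO as the solvent control were given 1 h ahead, and recombinant murine IFNγ at 1 ng/mL or its vehicle was present for the last 2 h. Every condition was therefore harvested after 3 h. P300 and CBP are paralogous lysine acetyltransferases that act on histones and transcription factors, and the inhibitors block their catalytic domain. The doses of the inhibitors differ, so a difference between them is one between these treatments. The study's methods describe the triplicates as technical and the labels as biological, so n counts libraries, and p-values may measure only technical spread.

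Krüppel-like factors bind GC-rich and CACCC elements through zinc fingers at the C-terminal end, and the sister Sp family does the same. They differ in what their N-terminal ends recruit. Klf3 is a repressor that binds CtBP, Klf2, Klf4, Klf5, Klf6 and Klf7 act largely as activators and can recruit acetyltransferases, and Klf9, Klf10, Klf13 and Klf16 are known for recruiting the Sin3 corepressor. Klf4 and Klf5 have long been studied in epithelial growth and differentiation, Klf6 and Klf10 as early responders to growth factors and TGF-β, and Klf2 in the endothelium and in resting T cells.

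In the GENCODE vM21 annotation of GRCm38, Klf3 lies at chr5:64803388-64832901, + strand, and the activators at chr8:72319033-72321656, + strand for Klf2, chr4:55527143-55532466, - strand for Klf4, chr14:99298691-99315036, + strand for Klf5, chr13:5861482-5870394, + strand for Klf6 and chr1:64029447-64122282, - strand for Klf7. The Sin3-binding members lie at chr19:23141226-23168134, + strand for Klf9, chr15:38291463-38300706, - strand for Klf10, chr7:63886351-63938915, - strand for Klf13 and chr10:80567124-80577321, - strand for Klf16. Exons of Klf3 share 404 bases with Gm20033 on the other strand, and those of Klf7 share 3196 bases with Gm26649. Reads were counted without a strand option, so reads from those bases cannot be assigned to 1 of the genes.

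RefSeq promoter windows (build GRCm38.p6) of 250 bases before the RefSeq start were matched for 7 of the 10 members, Klf5, Klf10 and Klf16 being the others. By the GENCODE coordinates above, the Klf7 window lies inside its gene. Those of Klf2, Klf3 and Klf6 run past the start of theirs. Matches in these windows are therefore not all upstream of the gene. CACCC, the letters a Krüppel-like factor is known to bind, was found on either strand in 5 of 7 windows, those of Klf2, Klf3 and Klf7 among them. The share was 52.0% of 32817 promoter windows of the same length. The GC box GGGCGG was found on either strand in 6 of 7, against 32.7%, and CCAAT in 3 of 7, against 33.8%. The windows of the members held 59.2% to 78.4% G and C, and the median of all windows was 52.4%. The following 3 windows lie outside the annotated bounds of their own gene. They are shown for Klf13 and Klf4, which fell with A-241, and for Klf9, whose fall was called only without the libraries described next. Capitals mark CACCC in either orientation. Klf13 has 1 match, which shares a base with a GC box, Klf4 has 0 and Klf9 has 1.
Klf13 (chr7:63938916-63939165, - strand): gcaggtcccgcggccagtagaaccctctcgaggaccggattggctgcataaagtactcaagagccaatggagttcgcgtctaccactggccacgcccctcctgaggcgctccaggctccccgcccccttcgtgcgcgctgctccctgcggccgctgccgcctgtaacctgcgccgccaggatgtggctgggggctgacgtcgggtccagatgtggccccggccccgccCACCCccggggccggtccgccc
Klf4 (chr4:55532476-55532725, - strand): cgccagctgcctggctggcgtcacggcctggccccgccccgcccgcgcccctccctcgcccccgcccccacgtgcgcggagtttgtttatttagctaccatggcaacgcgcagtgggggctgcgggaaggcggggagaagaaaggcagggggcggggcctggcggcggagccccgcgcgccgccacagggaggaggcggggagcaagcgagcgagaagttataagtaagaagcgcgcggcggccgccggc
Klf9 (chr19:23140976-23141225, + strand): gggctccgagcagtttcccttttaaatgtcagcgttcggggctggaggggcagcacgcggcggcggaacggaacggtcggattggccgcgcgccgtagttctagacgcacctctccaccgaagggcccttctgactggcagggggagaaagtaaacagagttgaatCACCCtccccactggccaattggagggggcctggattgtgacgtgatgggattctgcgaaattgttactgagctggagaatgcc

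Libraries held between 3417167 and 7856830 counts, at which 3 counts correspond to 0.382 to 0.878 CPM, the unit of level used here, in which counts are scaled to a common library total. The third DMSO library and the second IFNγ library stood apart from the others of their condition and are called the deviating libraries. Their root mean square deviation from the condition mean, over all genes tested and on the log2 scale, was 0.731 and 0.755, while the other 16 libraries had 0.226 to 0.512. Gm42418, which overlaps ribosomal RNA, took 20.1% and 23.0% of their counts, against 7.11% to 16.2%. Results are therefore given with all libraries and, where they rest on these, also without both. The deviating libraries were picked by their spread in these same data. Leaving them out takes the largest deviations out of the spread that all comparisons share, so p-values without both may be too small. DMSO and IFNγ then also have 1 library fewer each. Epithelial identity was checked on 7 markers, of which 6 were expressed (Cdh1, Epcam, Krt5, Krt8, Krt14 and Krt18), while Krt19 had at most 1 count. Markers of leukocytes summed to at most 19.3 CPM, in a library with A-485, and those of fibroblasts and endothelium to at most 3.6 and 4.1 CPM. The macrophage marker Adgre1 and the endothelial Cdh5 had 0 counts in every library. Others of these lists were detected and passed the filter, with up to 73 counts for Ptprc and 22 for Itgam of leukocytes. The endothelial Pecam1 had up to 20 counts and the fibroblast Pdgfra up to 14.

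A-241 lowered most of the 10 listed Krüppel-like factors. The list was chosen with earlier results of these data known. Its counts beside the shares of all genes are therefore not an unbiased test of the family. Against DMSO, 6 of the 10 fell (Klf3, Klf4, Klf5, Klf6, Klf7 and Klf13), whereas 3.53% of all genes tested were called lower and 4.35% in either direction. In the presence of IFNγ, 6 of 10 again fell with A-241, with 3.54% of all genes called lower and 4.09% called in all. These were the same 6 genes. Calls rest on an adjusted p below 0.01 (edgeR quasi-likelihood test, Benjamini-Hochberg adjustment over all genes tested). The median log2 fold change of the 10 members was -1.13 without and -1.42 with IFNγ, and that of all genes tested was 0.01 and -0.02. When each pair of conditions was fitted alone, with 6 libraries for the spread, 2 of the falls (Klf3 and Klf13) were called without IFNγ and 1 (Klf13) with IFNγ, where 53 and 81 of all genes were called.

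The summed epithelial markers were lower in every inhibitor library than in every library without inhibitor. The sum of the 7 markers was 1523 to 1773.9 CPM with DMSO and 1323 to 1496.1 CPM with IFNγ, and 982.3 to 1026.2 CPM with A-241, 965 to 1108.8 CPM with A-241+IFNγ, 1066.1 to 1201.3 CPM with A-485 and 1033.3 to 1181.4 CPM with A-485+IFNγ. Of the 6 tested, 2 were called with A-241 against DMSO, where 3.53% of all genes were called lower. Krt18 (-0.84 ± 0.15, adjusted p = 0.00186) and Krt14 (-1.50 ± 0.27, adjusted p = 0.00175) were lower, and both calls were lost without A-241 replicate 1 or 3. Without both deviating libraries they were at -0.85 (adjusted p = 0.000524) and -1.13 (adjusted p = 1.09e-05). The fibroblast marker Pdgfra had 12, 14 and 9 counts with DMSO and 0, 3 and 0 counts with A-241 and was called lower (adjusted p = 0.00947), a call lost in 5 of 6 fits without 1 library (adjusted p between 0.0159 and 0.048) and kept without A-241 replicate 2. With A-241 averaged without and with IFNγ, the same 2 of 6 epithelial markers were called lower, where 7.05% of all genes were. They were at -0.67 (Krt18, adjusted p = 0.000279) and -1.21 (Krt14, adjusted p = 0.000217). Pdgfra was also lower (-2.755, adjusted p = 0.00199), and these calls were kept in every fit without 1 library. With A-485 averaged, 1 of 6, Krt14, was lower (-0.94, adjusted p = 0.00546), where 2.39% of all genes were. That call was lost in 5 fits without 1 library. The part of these markers in the changes of the Krüppel-like factors was not tested. In bulk RNA, fewer cells of a kind and less RNA per cell cannot be told apart.

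**Figure D1:**
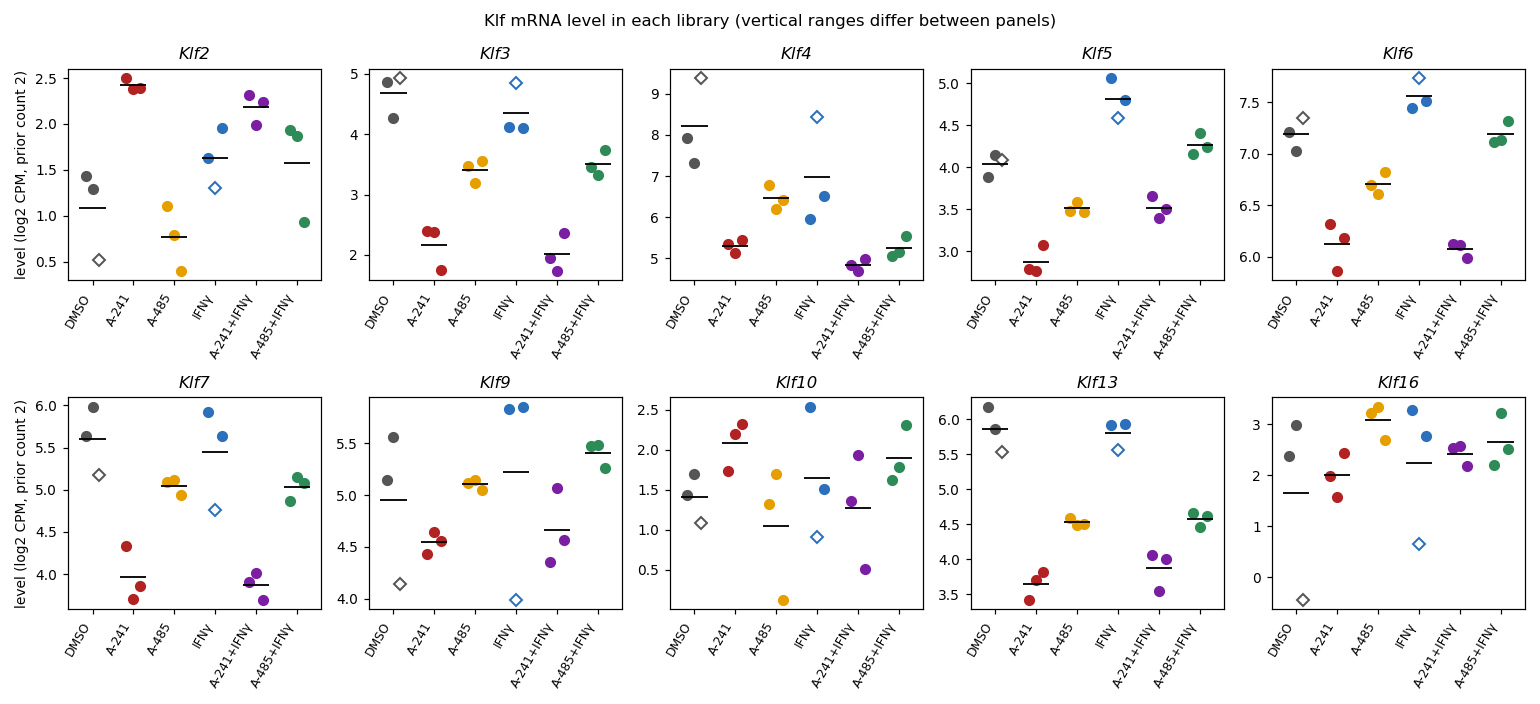
Level of each Krüppel-like factor mRNA in each library, as log2 CPM with a prior count of 2, by condition (3 libraries each; bars are means; open diamonds are the third DMSO and the second IFNγ library). In the panels of Klf3, Klf4, Klf5, Klf6, Klf7 and Klf13 all A-241 libraries lie below the libraries without inhibitor, and in that of Klf2 they lie above those of their control. This only describes the panels, as the share of all genes separated in this way is not given.

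Klf13, a Sin3-binding factor known for activating Ccl5 in T cells, had the smallest adjusted p of the members with A-241 against DMSO. Its level was 71.9, 57.9 and 46.0 CPM with DMSO, 10.3, 12.6 and 13.7 CPM with A-241 and 23.7, 21.9 and 22.3 CPM with A-485. With IFNγ the levels were 59.9, 47.1 and 61.0 CPM, and 16.3, 11.3 and 15.7 CPM with added A-241 and 24.9, 21.6 and 24.1 CPM with added A-485. Both inhibitors thus gave levels under every library without inhibitor, and the A-241 libraries lay under every A-485 library. Klf13 was 4.8-fold lower with A-241 than with DMSO (log2 fold change -2.26 ± 0.20 (SE), adjusted p = 2.11e-06) and 3.9-fold lower with A-241+IFNγ than with IFNγ (-1.96 ± 0.19, adjusted p = 6.46e-06). It was 2.59-fold lower with A-485 (-1.37 ± 0.19, adjusted p = 0.000876) and 2.38-fold lower with A-485+IFNγ (-1.25 ± 0.19, adjusted p = 0.00265). In order of mean level the conditions were DMSO, IFNγ, A-485+IFNγ, A-485, A-241+IFNγ and A-241, and within each of the 3 neighbouring pairs with and without IFNγ the difference was not called (largest log2 difference 0.23, adjusted p = 1). The fall with A-485+IFNγ was lost when IFNγ replicate 1 or 3 or any A-485+IFNγ library was left out (adjusted p between 0.0117 and 0.0276), and the 3 other falls of Klf13 were kept.

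Klf3, the CtBP-binding repressor that in erythroid cells and fat limits the targets of other family members, fell most after Klf4 when all libraries were used. Levels of Klf3 were 28.7, 18.8 and 30.1 CPM with DMSO and 4.84, 4.81 and 2.95 CPM with A-241, 6.08-fold lower (-2.60 ± 0.29, adjusted p = 2.15e-05). With IFNγ they were 17.1, 28.3 and 16.8 CPM, and 3.48, 2.94 and 4.74 CPM with A-241+IFNγ, 5.51-fold lower (-2.46 ± 0.29, adjusted p = 3.61e-05). No A-241 library reached the lowest library without inhibitor. Levels of Klf3 with A-485 were 10.8, 8.78 and 11.4 CPM, and 10.5, 9.57 and 12.9 CPM with A-485+IFNγ, between those of the other conditions and without overlap with them. The differences of Klf3 with A-485 were not called (-1.32 ± 0.26, adjusted p = 0.0148 against DMSO, and -0.89 ± 0.26, adjusted p = 0.0998 with IFNγ), and the first was called without both deviating libraries, at -1.17 (adjusted p = 0.00294). The 404 bases that Klf3 shares with Gm20033 leave a part of these reads uncertain.

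Klf4, an activator and repressor of epithelial differentiation and a reprogramming factor, had the largest fold change with A-241 when all libraries were used. Its level was 242, 159.8 and 663 CPM with DMSO and 40.4, 34.5 and 43.6 CPM with A-241, and 110.5, 73.5 and 85.0 CPM with A-485. With IFNγ it was 61.6, 345 and 90.6 CPM, and 28.1, 25.6 and 31.1 CPM with A-241+IFNγ and 32.7, 35.0 and 46.2 CPM with A-485+IFNγ. The third DMSO and the second IFNγ library held the highest Klf4 of their conditions by far, and every inhibitor library lay under every library of its control. Klf4 was 8.97-fold lower with A-241 (-3.17 ± 0.57, adjusted p = 0.00203) and 5.84-fold lower with A-241+IFNγ (-2.55 ± 0.56, adjusted p = 0.00879). These log2 fold changes of Klf4 were -2.33 (adjusted p = 2.19e-07) and -1.45 (adjusted p = 9.41e-05) without both deviating libraries, smaller in size but with a smaller p. The call of Klf4 against DMSO was lost when any A-241 library was left out (adjusted p between 0.0128 and 0.0162). With IFNγ it was lost without IFNγ replicate 2 or any A-241+IFNγ library (adjusted p between 0.0357 and 0.0447), and by limma-voom (adjusted p = 0.0177). The differences of Klf4 with A-485 were not called with all libraries (-1.98 ± 0.54, adjusted p = 0.0809 against DMSO, and -2.12 ± 0.55, adjusted p = 0.0673 with IFNγ), and both were called without the deviating libraries, at -1.14 (adjusted p = 0.00178) and -1.02 (adjusted p = 0.00548).

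Klf5, which promotes proliferation of basal epithelia and of many carcinomas, was at 14.3, 17.4 and 16.6 CPM with DMSO and 6.52, 6.41 and 8.01 CPM with A-241. With IFNγ the levels were 32.9, 23.5 and 27.5 CPM, and 12.2, 10.1 and 10.9 CPM with A-241+IFNγ. Groups did not overlap in either pair. Klf5 fell 2.3-fold (-1.20 ± 0.18, adjusted p = 0.000325) without and 2.54-fold (-1.35 ± 0.17, adjusted p = 6.38e-05) with IFNγ. With A-485 it was at 10.8, 11.6 and 10.7 CPM, and at 17.4, 20.8 and 18.4 CPM with A-485+IFNγ, log2 fold changes of -0.54 ± 0.17 (adjusted p = 0.135) and -0.58 ± 0.16 (adjusted p = 0.0893) that were not called.

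Klf6, an early-response activator and tumour suppressor, was the member with the smallest standard errors. It was at 148, 129.8 and 162 CPM with DMSO and 79.7, 57.9 and 72.5 CPM with A-241. With IFNγ it was at 174, 212 and 182 CPM, and at 69.6, 69.1 and 63.1 CPM with A-241+IFNγ. The A-241 libraries lay under every other library of Klf6. Klf6 fell 2.09-fold (-1.06 ± 0.15, adjusted p = 0.000287) without and 2.81-fold (-1.49 ± 0.15, adjusted p = 1.1e-05) with IFNγ. Levels with A-485 were 103, 97.1 and 113 CPM, and 138, 139.9 and 159.6 CPM with A-485+IFNγ (-0.49 ± 0.15, adjusted p = 0.135, and -0.38 ± 0.15, adjusted p = 0.255, neither called).

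Klf7, an activator known from neurons and from the control of fat cell formation, was at 49.5, 62.7 and 35.6 CPM with DMSO and 19.8, 12.6 and 14.1 CPM with A-241. With IFNγ it was at 60.2, 26.8 and 49.5 CPM, and at 14.6, 15.8 and 12.6 CPM with A-241+IFNγ. Groups of each pair were separate even though the 2 deviating libraries held the lowest Klf7 of their conditions. The log2 fold change of Klf7 was -1.68 ± 0.27 without IFNγ (adjusted p = 0.000782) and -1.68 ± 0.27 with IFNγ (adjusted p = 0.000753), and without those libraries it was -1.86 (adjusted p = 6.38e-07) and -1.95 (adjusted p = 2.83e-07). With A-485 the level was 33.7, 34.4 and 30.2 CPM, and 28.7, 35.0 and 33.4 CPM with IFNγ, and among the pairwise comparisons the difference was called only with IFNγ and without those libraries. It was -0.50 ± 0.26 (adjusted p = 0.379) with all and -0.79 (adjusted p = 0.0075) without them. The bases that Klf7 shares with Gm26649 make a part of its counts uncertain.

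Klf2, an activator best known for quiescence of endothelium and T cells, was the member with the highest log2 fold change with A-241 against DMSO. It was measured by few reads, 11, 13 and 3 counts with DMSO and 25, 24 and 23 counts with A-241, and 10, 7 and 4 counts with A-485. With IFNγ there were 22, 7 and 20 counts, and 21, 22 and 21 counts with A-241+IFNγ and 18, 16 and 8 counts with A-485+IFNγ. In CPM, every A-241 library lay above every DMSO library, and those with A-241+IFNγ lay just above those with IFNγ. The log2 fold change of Klf2 with A-241 was 1.39 ± 0.34 against DMSO (adjusted p = 0.0165) and 0.56 ± 0.32 with IFNγ (adjusted p = 0.363), neither of them called. With A-485 it was -0.46 ± 0.39 (adjusted p = 0.661), with an interval from -1.28 to 0.37.

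Klf9, a target of glucocorticoid and thyroid hormone receptors, was called or not depending on the deviating libraries. Its level was 35.0, 46.9 and 17.3 CPM with DMSO and 21.2, 24.6 and 23.2 CPM with A-241. With IFNγ it was 56.8, 15.5 and 57.4 CPM, and 20.0, 33.3 and 23.3 CPM with A-241+IFNγ. The lowest library of each control was the deviating one, and groups overlapped through it. With all libraries Klf9 was not called (-0.54 ± 0.38, adjusted p = 0.425 without and -0.77 ± 0.38, adjusted p = 0.272 with IFNγ), and without both it was lower with A-241 at -0.83 (adjusted p = 0.00402) and -1.17 (adjusted p = 0.000125). Levels with A-485 were 34.4, 35.1 and 32.8 CPM, and 44.2, 44.4 and 38.0 CPM with IFNγ, with no call with or without the deviating libraries.

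Klf10, induced early by TGF-β, and Klf16, a regulator of metabolic genes, had few counts and no call in any of the 13 comparisons, with or without the deviating libraries. Klf10 had between 3 and 44 counts in a library, and its log2 fold change with A-241 was 0.72 ± 0.50 against DMSO (adjusted p = 0.412) and -0.56 ± 0.49 with IFNγ (adjusted p = 0.583). Klf16 had between 1 and 76 counts. Its DMSO libraries had 23, 48 and 1 counts and its IFNγ libraries 76, 4 and 37 counts, the lowest again being the deviating ones. The interval for Klf16 with A-241 against DMSO ran from -1.64 to 1.02 on the log2 scale, and it holds the value of -1.20 seen for Klf5.

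Fewer members were called with A-485 at 1000 nM than with A-241 at 250 nM. Against DMSO 1 of 10 was called, Klf13, with 0.619% of all genes called lower and 0.66% in all. With IFNγ 1 of 10 was called, again Klf13, with 0.535% lower and 0.552% in all. These counts rose to 3 of 10 (Klf3, Klf4 and Klf13) and 4 of 10 (Klf4, Klf5, Klf7 and Klf13) without both deviating libraries, where 2.16% and 2.9% of all genes were called. For A-241 the counts without them were 7 of 10 both without and with IFNγ, Klf9 being added each time, and 8.08% and 8.03% of all genes were called. The comparisons of the inhibitors share their control libraries, so the values of each member stand side by side and likeness between them is no separate evidence.

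**Figure D2:**
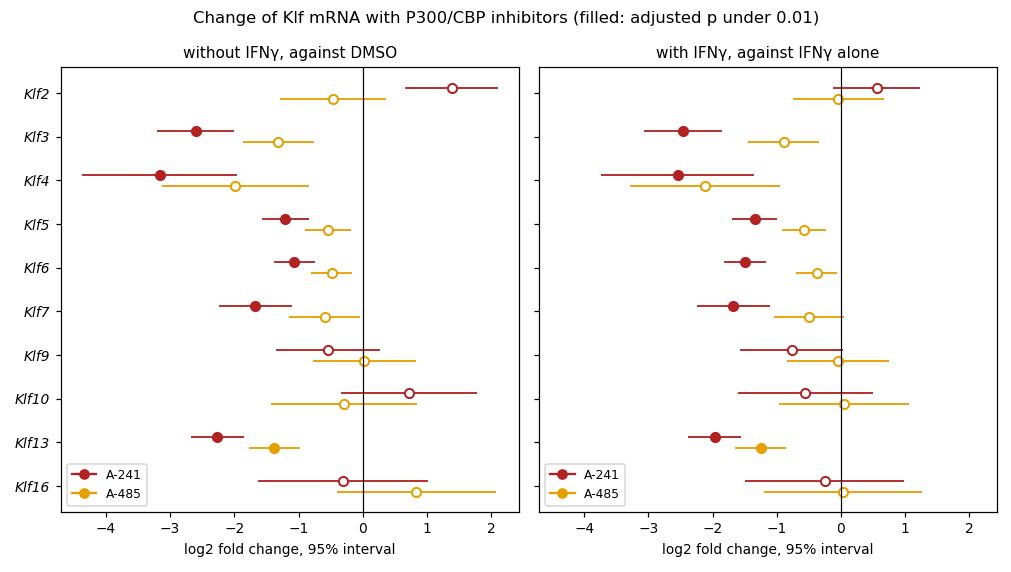
Log2 fold change of each member with A-241 (red) and A-485 (orange), without IFNγ against DMSO (left) and with IFNγ against IFNγ alone (right), with 95% intervals from the fit to all 18 libraries. Filled points have an adjusted p under 0.01, which are 6 members with A-241 and Klf13 alone with A-485 in each panel.

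A-241 and A-485 were then compared directly at these unequal doses. Without IFNγ 0 of 10 members were called by edgeR, where 0.368% of all genes were, although 7 of 10 had an unadjusted p under 0.05, against 8.15% of all genes. DESeq2 called 4 (Klf2, Klf3, Klf6 and Klf13), where it called 1.04% of all genes, and limma-voom 0. The largest differences were that of Klf2, 1.84 ± 0.35, adjusted p = 0.0167, and that of Klf3, -1.29 ± 0.29, adjusted p = 0.0466. Without both deviating libraries, neither of which belongs to the treatments compared, 6 of 10 were called and 1.87% of all genes. Klf2 was then higher with A-241 at 1.83 (adjusted p = 0.00315), and Klf3, Klf4, Klf6, Klf7 and Klf13 were lower, between -0.59 (adjusted p = 0.00708) for Klf6 and -1.30 (adjusted p = 0.00382) for Klf3. With IFNγ 1 of 10 was called, Klf6, 2.17-fold lower with A-241+IFNγ (-1.12 ± 0.15, adjusted p = 0.00114), where 0.51% of all genes were called lower and 0.518% in all. That call was lost without A-241+IFNγ replicate 3 (adjusted p = 0.011). In the 16 libraries without both, 4 of 10 were called (Klf3, Klf5, Klf6 and Klf7) and 1.35% of all genes. For Klf4 the treatments with IFNγ differed by -0.43 ± 0.54, with an interval from -1.58 to 0.72, which does not show that they act alike.

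With IFNγ alone 0 of 10 members were called by edgeR, where 1.3% of all genes were called, and 2 of 10 (Klf5 and Klf6) had an unadjusted p under 0.05, against 8.49% of all genes. DESeq2 and limma-voom each called 1, Klf5, where they called 1.82% and 1.23% of all genes. Klf5 was 1.75-fold higher with IFNγ (0.80 ± 0.16, adjusted p = 0.0114), and every IFNγ library lay above every DMSO library. Klf6 was also higher in every IFNγ library, by 0.37 ± 0.15 (adjusted p = 0.44). The log2 fold change of Klf4 was -1.10 ± 0.53 with all libraries (adjusted p = 0.603), and its groups overlapped. In the fit without both deviating libraries 2 of 10 were called and 2.01% of all genes, Klf4 lower at -1.37 (adjusted p = 0.000791) and Klf5 higher at 0.95 (adjusted p = 0.00269).

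Under the inhibitors, the response to IFNγ was called for 0 of 10 members with A-241 (0.192% of all genes) and 0 of 10 with A-485 (0.802%). An unadjusted p under 0.05 was seen for 1 of 10 with A-241, against 3.74%, and for 4 of 10 with A-485, against 5.83%, while DESeq2 and limma-voom called 0 in both. Klf5 was higher with IFNγ in each setting, by 0.66 ± 0.18 with A-241 (adjusted p = 0.251) and by 0.77 ± 0.17 with A-485 (adjusted p = 0.0282). In both, all libraries with IFNγ lay above all without it. The IFNγ response of Klf4 was -0.48 ± 0.54 with A-241 (adjusted p = 1) and -1.24 ± 0.54 with A-485 (adjusted p = 0.736), again without overlap. Without both deviating libraries, which enter here only through the shared spread, 0 of 10 were called with A-241 (0.468% of all genes) and 2 of 10 with A-485 (1.7%), Klf4 at -1.25 (adjusted p = 0.000438) and Klf5 at 0.76 (adjusted p = 0.00885).

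**Figure D3:**
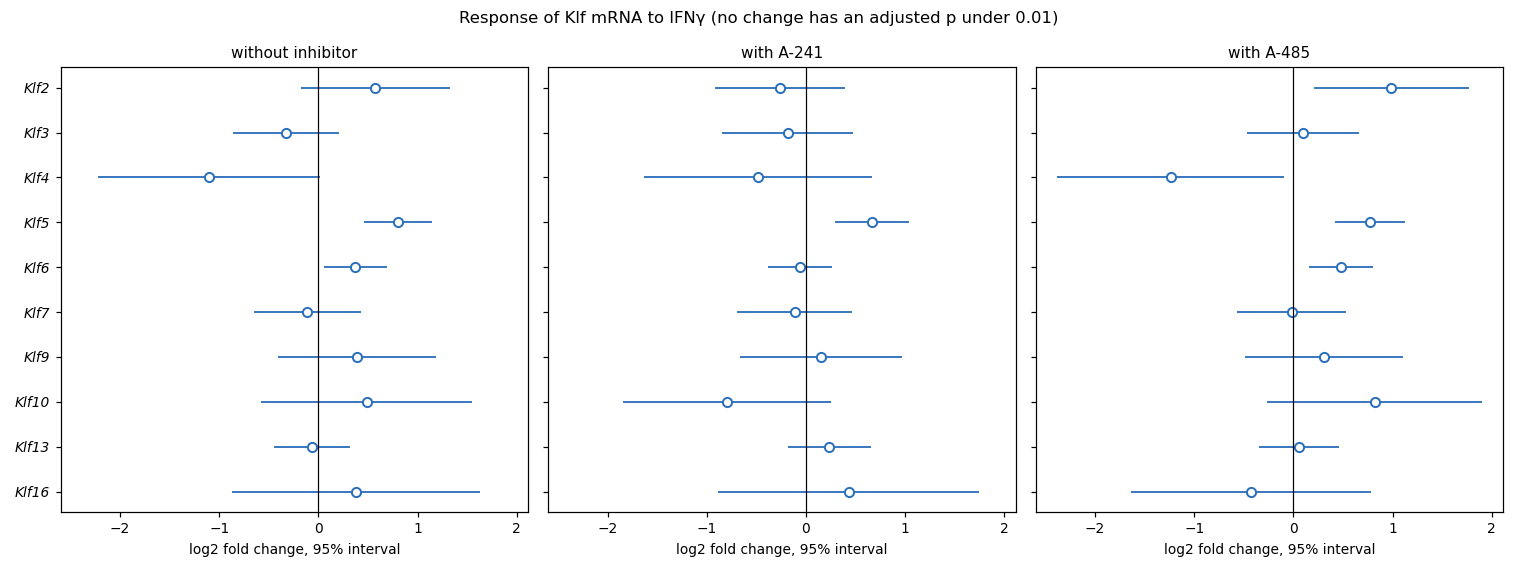
Log2 fold change of each member with IFNγ, without inhibitor, with A-241 and with A-485, with 95% intervals from the fit to all 18 libraries. All points are open because no adjusted p is under 0.01, and Klf5 is the member whose interval lies above 0 in all 3 panels.

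Whether the response of a member to IFNγ differed with an inhibitor was tested as an interaction. With A-241 and with A-485, 0 of 10 members were called by edgeR, DESeq2 and limma-voom, and 0 of 10 had an unadjusted p under 0.05 by edgeR. Of all genes, 0.0334% and 0% were called by edgeR, and 3.35% and 4.17% had an unadjusted p under 0.05. Without both deviating libraries 0 of 10 members were called again, with 0.167% and 0.0251% of all genes. The interaction of Klf5 was -0.14 ± 0.24 with A-241, with an interval from -0.65 to 0.37, and that of Klf6 was -0.43 ± 0.21, with an interval from -0.88 to 0.03.

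The effect of each inhibitor averaged over the settings with and without IFNγ uses 6 libraries against 6 and shares its libraries with the comparisons above. With A-241, 6 of 10 members were called lower, where 7.05% of all genes were, and 1, Klf2, higher, where 3.39% were, of 10.4% called in all. The log2 fold change of Klf2 was 0.97 ± 0.23 (adjusted p = 0.00795). It was not called in 10 of the 12 fits that left out 1 of these libraries (adjusted p between 0.00811 and 0.0241 over the 12), was kept without DMSO replicate 1 or IFNγ replicate 3, and was lost without both deviating libraries, at 0.80 (adjusted p = 0.017). Klf3, Klf4, Klf5, Klf6, Klf7 and Klf13 kept their call with A-241 in every one of these 12 fits. With A-485, 4 of 10 were called, all lower (Klf3 at -1.11 ± 0.18, Klf4 at -2.05 ± 0.39, Klf5 at -0.56 ± 0.12 and Klf13 at -1.31 ± 0.13), where 2.39% of all genes were lower and 2.59% called in all. Of these, Klf4 was lost when any A-485 or A-485+IFNγ library was left out (adjusted p between 0.0114 and 0.0169) and Klf5 without any library of the 4 conditions except DMSO replicate 1 and IFNγ replicate 2 (adjusted p between 0.0131 and 0.0288).

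Without both deviating libraries the averaged effect of A-241 was called in 7 of 10 members, all lower, where 16% of all genes were called. These were the 6 above and Klf9, at -1.0 (adjusted p = 9.09e-06). That of A-485 was called in 5 of 10, where 5.39% of all genes were called, with Klf7 added at -0.78 (adjusted p = 0.000243). The averaged log2 fold change of Klf4 moved from -2.86 to -1.89 (adjusted p = 1.89e-08) with A-241 and from -2.05 to -1.08 (adjusted p = 5.49e-05) with A-485, more than that of any other member.

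**Figure D4:**
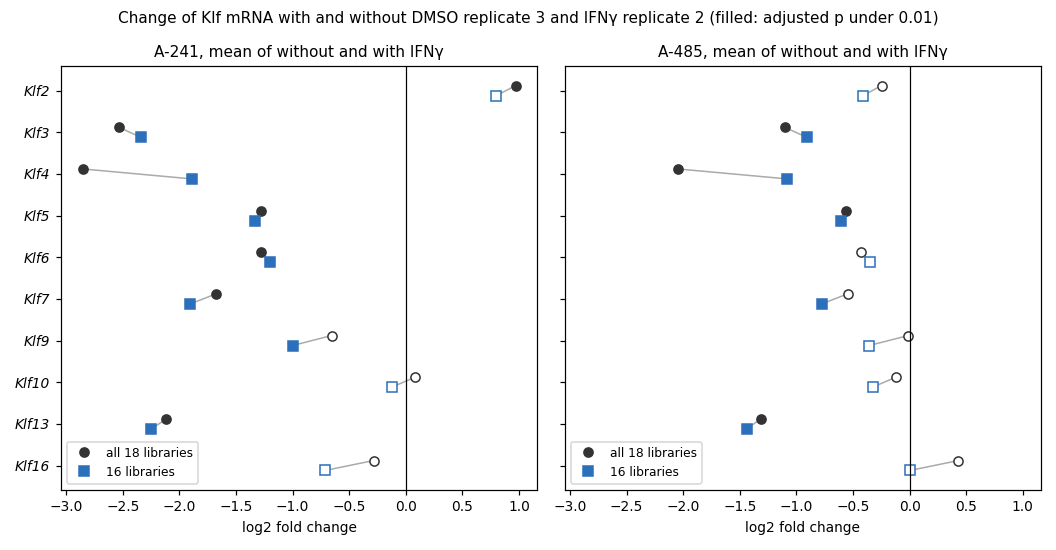
Log2 fold change of each member with A-241 (left) and A-485 (right), averaged over the settings without and with IFNγ, from all 18 libraries (circles) and from 16, without the third DMSO and the second IFNγ library (squares). Filled symbols have an adjusted p under 0.01. Klf4 moves furthest towards 0, and Klf9 with A-241 and Klf7 with A-485 become filled without these libraries.

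Of 7 other Klf genes 1, Klf8, a CtBP-binding repressor like Klf3, had enough counts to be tested. It had 7, 8 and 3 counts with DMSO and 20, 20 and 21 counts with A-241, and 12, 2 and 13 counts with IFNγ and 25, 17 and 8 counts with A-241+IFNγ, higher in each A-241 library than in each DMSO library but overlapping with IFNγ. Klf8 was higher with A-241 on average (1.39 ± 0.34, adjusted p = 0.00866), and this was not called without both deviating libraries, at 1.21 (adjusted p = 0.0132). The call of Klf8 was also lost in 10 of 12 fits without 1 library (all but IFNγ replicate 3 and A-241+IFNγ replicate 3), with limma-voom and with 2 surrogate variables. With 10.4% of all genes called in that average, it is 1 of 1 gene tested. Of the 9 genes of the Sp family 5 were tested, and 0 of 5 were called in any of the 13 comparisons by edgeR, DESeq2 or limma-voom, while 9 of 65 edgeR tests had an unadjusted p under 0.05, against 12.7% of tests over all genes and the same comparisons.

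Of 17 cofactors and regulators of Krüppel-like factors, all tested, 1 was called with A-241 against DMSO, a share near the 4.35% of all genes. The gene called was Mef2c, which encodes a transcription factor that activates Klf2 and Klf4 downstream of the kinase Erk5. The part of Mef2c in the changes of these 2 members was not tested. Mef2c was at 30.8, 27.6 and 85.7 CPM with DMSO and 8.20, 14.8 and 13.7 CPM with A-241 (-1.95 ± 0.43, adjusted p = 0.0081), and the third DMSO library was the highest by far. Its log2 fold change was -1.24 (adjusted p = 0.000191) without both deviating libraries, and the call was lost without DMSO replicate 3 alone or any A-241 library. It was also lost by limma-voom, on only the groups compared and with the replicate number as a block. With A-241 averaged over IFNγ, 4 of 17 were called, where 10.4% of all genes were. Mef2c was lower (-1.47 ± 0.30, adjusted p = 0.00237), at -0.82 (adjusted p = 0.000208) without both deviating libraries, and 3 others were higher, the deacetylase gene Hdac1 (0.52 ± 0.13, adjusted p = 0.00797), Ep300, which encodes P300 itself (0.45 ± 0.11, adjusted p = 0.00715), and Mef2a (0.46 ± 0.11, adjusted p = 0.00672). These 3 lost their call in 9 or 10 of the 12 fits without 1 library.

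Among 6 genes described as targets of Krüppel-like factors 4 were tested, and 1 of 4, Ccnd1, was called with either inhibitor against DMSO, where 4.35% (A-241) and 0.66% (A-485) of all genes were. Ccnd1, which encodes cyclin D1 and is known to be activated by Klf5 and repressed by Klf4, was at 1163, 1155 and 1325 CPM with DMSO, 267, 248 and 260.0 CPM with A-241 and 392, 372 and 417 CPM with A-485. Levels with IFNγ were 701, 875 and 737 CPM, and 363, 359 and 346 CPM with A-241+IFNγ and 373, 425 and 343 CPM with A-485+IFNγ. All inhibitor libraries lay under all libraries without inhibitor. The libraries with IFNγ alone also lay under all DMSO libraries, so the fold changes with IFNγ start from a lower control. For IFNγ against DMSO 0 of 4 targets were called, where 1.3% of all genes were. Ccnd1 was 4.71-fold lower with A-241 (-2.23 ± 0.14, adjusted p = 7.54e-08) and 3.08-fold lower with A-485 (-1.63 ± 0.14, adjusted p = 1.85e-05), and with IFNγ 2.16-fold and 2.03-fold lower (-1.11 ± 0.14, adjusted p = 6.39e-05, and -1.02 ± 0.14, adjusted p = 0.000946). The last was lost without A-485+IFNγ replicate 1 or 3. Exons of Ccnd1 share 1100 bases with LTO1 on the other strand, which makes a part of its counts uncertain. With A-485+IFNγ against IFNγ 2 of 4 targets were called, where 0.552% of all genes were, and with A-485 on average 2 of 4, where 2.59% were. Besides Ccnd1 this was Smad7, an inhibitor of TGF-β signalling. Smad7 was lower with A-485+IFNγ (-1.45 ± 0.25, adjusted p = 0.00674), a call lost in 5 of 6 fits without 1 library. Its fall with A-485 on average (-1.26 ± 0.17, adjusted p = 0.000267) was kept in each of the 12 fits without 1 library.

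Over the 18 libraries, the 6 members that fell with A-241 had a Pearson's r of log2 CPM between 0.356 (Klf4 with Klf5) and 0.908 over their pairs. It was 0.908 for Klf3 with Klf13, 0.897 for Klf3 with Klf6, 0.864 for Klf5 with Klf6 and 0.856 for Klf7 with Klf13, while Klf2 ran against Klf3 (-0.658) and Klf4 (-0.651). Klf9 went with Klf16 (0.731), and both were low in the 2 deviating libraries. These are descriptions over libraries that share 6 treatments. The 18 libraries include both deviating ones, in which Klf4 was the highest and Klf9 the lowest of its condition. No r is given without them, here or for the likeness that follows. Among 7403 genes with a mean of at least 50 counts that are not members, the gene most like each member in this sense was Irf2bp2 for Klf3 (0.969), 1700017B05Rik for Klf4 (0.966), Bzw2 for Klf5 (0.95), Lama4 for Klf6 (0.928), Ccn4 for Klf7 (0.954), Ptx3 for Klf9 (0.935) and Epb41l4a for Klf13 (0.968). Klf2, Klf10 and Klf16 had too few counts for this search.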

How the data were processed

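The authors deposited whole-number read counts for each gene. They had converted runs with bcl2fastq 2.17.1.14, trimmed them with cutadapt 1.7, aligned them to GRCm38 with HISAT2 2.1.0 and counted them on exons with featureCounts, reads on several genes being counted for each. The annotation release is not given in the sources used here, and GENCODE vM21 named 42462 of 43629 identifiers. Conditions were taken from the labels.

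Counts were analysed in R 4.3.3 with edgeR 4.0.16 (filterByExpr, TMM, glmQLFit and glmQLFTest, 1 mean per condition, 18 libraries together), which left 11964 genes. A gene was called at a Benjamini-Hochberg adjusted p under 0.01 over all genes tested. Adjusted p-values are from edgeR unless another tool is named, standard errors are the log2 fold change divided by the root of F, and intervals cover 95%. Interactions and inhibitor effects averaged over IFNγ were contrasts of the same fit, giving 13 comparisons. Levels are CPM of TMM-scaled libraries, with a prior count of 2 on the log2 scale. Alternatives were DESeq2 1.42.0, limma-voom (limma 3.58.1), other scalings, no filter, an adjusted p under 0.05, only the groups compared, the replicate number as a block, each library left out in turn, both deviating libraries left out and 2 surrogate variables (sva 3.50.0). Figures were drawn with matplotlib 3.10.9 in Python 3.11.15. The scripts were tested on simulated data.

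All members of the given list were named in the text, and of each further list at most 4 called genes by smallest p. The members and lists were chosen with earlier results of these data known. Same-numbered libraries did not deviate together, so the numbers were not used to pair them.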

Additional observations from a re-analysis of the deposited data

How the results depend on the processing

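Of 26 changes called among the members, 11 kept their call under every alternative, and 0 turned direction. Among the pairwise changes, those kept were only Klf3 and Klf13 with A-241 against DMSO and Klf13 with A-241+IFNγ against IFNγ. The others of the 11 were averaged effects, which share their libraries with the pairwise comparisons. The number of members called moved by over 1.5 times in the following settings, given in the order in which the comparisons are named, and the cause was not tested. The number called over all genes also moved in several of these settings, as given below for A-241 and A-485 against DMSO. The counts of members are therefore not results about the members alone. With an adjusted p under 0.05 it was 1 for IFNγ against DMSO, 2 for A-485 against DMSO, 3 for A-241 against A-485, 3 for A-241+IFNγ against A-485+IFNγ and 1 for A-485+IFNγ against A-485. DESeq2 called 1, 3, 4 and 3 in the first 4 of these and 2 for A-485+IFNγ against IFNγ, and limma-voom 1 for IFNγ against DMSO. With total counts in place of TMM it was 2 for A-485 against DMSO, 0 for A-485+IFNγ against IFNγ and 2 for A-241+IFNγ against A-485+IFNγ, the last also 2 without the filter on low counts. On only the groups compared, where fewer libraries give the spread, it was 2 for A-241 against DMSO, 0 for A-485 against DMSO, 4 for A-241 against A-485, 1 for A-241+IFNγ against IFNγ, 0 for A-485+IFNγ against IFNγ, 3 for A-241+IFNγ against A-485+IFNγ, 1 for A-485+IFNγ against A-485 and 2 for A-485 averaged over IFNγ. Without both deviating libraries it was 2, 3, 6, 4, 4 and 2 for IFNγ against DMSO, A-485 against DMSO, A-241 against A-485, A-485+IFNγ against IFNγ, A-241+IFNγ against A-485+IFNγ and A-485+IFNγ against A-485, and with 2 surrogate variables 3, 5, 7, 3, 6 and 3. With 1 library left out, it ran from 0 to 2 for IFNγ against DMSO (2 without IFNγ replicate 2), from 1 to 2 for A-485 against DMSO (2 without DMSO replicate 2), from 0 to 1 for both A-485+IFNγ against IFNγ and A-241+IFNγ against A-485+IFNγ, and from 2 to 5 for A-485 averaged over IFNγ (5 without IFNγ replicate 2). The replicate block gave 2 for A-485 averaged over IFNγ, 5 in place of 6 for A-241+IFNγ against IFNγ, where Klf4 was lost, and 6 in place of 7 for A-241 averaged over IFNγ, where Klf2 was lost. Of 45 pairs of same-numbered libraries 15 had a correlation of deviations over 0.1 (median -0.018), and 3 of 18 libraries went best with their own number.

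Over all genes, the number called with A-241 against DMSO was 521, and it was 813 by DESeq2, 1085 at an adjusted p under 0.05, 1961 with 2 surrogate variables, 967 without both deviating libraries, 53 on only the groups compared and 254 to 458 with 1 library left out. For A-485 against DMSO it was 79, and 242, 244, 700, 258, 0 and 29 to 76 in the same settings. Total counts in place of TMM moved the median log2 fold change of all genes from 0.014 to 0.119 for A-241 against DMSO, from -0.018 to 0.126 for A-241+IFNγ against IFNγ and from 0.001 to 0.126 for A-241 averaged over IFNγ. The share of lower among called genes moved from 86.7% to 75.4% in the second and from 67.5% to 54.5% in the third. Klf2, Klf10 and Klf16 had the fewest reads of the members, with 3, 3 and 1 counts in their lowest library. The part of depth in their errors was not tested.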
